A study of Mus musculus with 12 samples.

Results

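Serpins are a superfamily of proteins with a shared fold, most of which inhibit serine proteases. An inhibitory serpin presents an exposed reactive centre loop as bait, and the protease that cuts the loop is trapped in a covalent complex with the rearranged serpin. The liver secretes many of them into plasma, where they restrain elastase, thrombin, plasmin, kallikrein and complement proteases, while clade b members act mostly inside cells. Some members do not inhibit proteases, among them corticosteroid-binding globulin, which carries corticosterone in blood and is encoded by Serpina6, thyroxine-binding globulin, encoded by Serpina7, and the collagen chaperone of the endoplasmic reticulum, encoded by Serpinh1. A response of this family to corticosterone (CORT, the main glucocorticoid of rodents) therefore touches the carrier of the hormone itself.

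The members were the genes whose symbol begins with Serpin in the deposited count tables and that reached 1 count-per-million (CPM, the deposited value over the library total) in at least 1 of 12 libraries. This rule kept 37 of 63 Serpin symbols, out of 22276 distinct symbols in the series. Clade a gave 21 members, clade b 7, clades e and f 2 each, and clades c, d, g, h and i 1 each. Clade a comprised Serpina1a to Serpina1e, Serpina3b, 3c, 3f, 3g, 3i, 3j, 3k, 3m and 3n, and Serpina5, 6, 7, 9, 10, 11 and 12. Clade b comprised Serpinb1a, b2, b6a, b6b, b8, b9 and b9b, and the others named here were Serpinc1, Serpind1, Serpine2, Serpinf1, Serpinf2, Serping1, Serpinh1 and Serpini1. Just outside the threshold, Serpinb1c peaked at 0.839 CPM and Serpinb10 at 0.941 CPM, and just inside it Serpina3i peaked at 1.77 CPM and Serpina3j at 1.95 CPM. On GRCm38, 20 of the clade a genes lie on chromosome 12 between 103614786 and 104414329, whereas Serpina7 lies on chromosome X. Of the clade b genes, 5 lie on chromosome 13 and 2 on chromosome 1.

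Male mice on a C57BL/6J background carried a floxed glucocorticoid receptor gene, Nr3c1, either without Cre (GRfl/fl) or with Cre driven by the skeletal actin promoter Acta1, which removes exon 3 of the gene in skeletal muscle fibres (GR-mKO). For 4 weeks, starting at 8 weeks of age, the drinking water held 1% ethanol alone (vehicle) or 1% ethanol with CORT at 100 µg/mL. Gastrocnemius, liver and gonadal white adipose tissue (WAT) of each of the 4 combinations gave 1 library each, from RNA pooled from 3 mice. Liver and WAT cells of GR-mKO mice keep the receptor, so a difference between genotypes in those tissues is one between mice whose muscle differs. No group had a replicate, so no p-value exists, and the spread between mice or pools is unknown.

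The libraries held 19394572 to 20940660 expected counts, so that 3 counts, the floor used here, corresponded to 0.143 to 0.155 CPM. Nr3c1 in gastrocnemius measured 113 CPM and 90.4 CPM in the vehicle and CORT libraries of GRfl/fl mice and 46.4 CPM and 35.5 CPM in those of GR-mKO mice, lower in both labelled knockouts. Skeletal muscle markers summed to 112736 to 155087 CPM in gastrocnemius, hepatocyte markers to 95613 to 152457 CPM in liver and adipocyte markers to 45308 to 69034 CPM in WAT. Epididymis markers summed to at most 2.88 CPM in WAT and pancreatic acinar markers to 10.6 to 34.4 CPM there, with Prss2, Ctrb1 and Cel at 0 in all 4 WAT libraries. Hepatocyte markers stood apart in gastrocnemius, with 13 of 14 higher in the GR-mKO library under both treatments, and they are given beside the serpins they move with. In whole tissue, fewer cells of a type and less RNA per cell cannot be told apart.

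The order of levels differed between tissues. Of the 37 members, 21 had their highest mean in liver, 14 in WAT and 2 in gastrocnemius. The family made up 5.23% of the counts in the vehicle-treated GRfl/fl liver, 6.13% with CORT, and 4.83% and 5.28% in the GR-mKO livers. In WAT the same 4 groups gave 0.219%, 0.380%, 0.214% and 0.348%, and in gastrocnemius 0.0573%, 0.0543%, 0.0820% and 0.0660%. Per kilobase of transcript, the mean over the 4 liver libraries was highest for Serpina1c, at 9849 CPM per kb, followed by Serpina3k at 6668 CPM per kb. In WAT the leading member was Serpina3n at 605 CPM per kb, and in gastrocnemius Serping1, the inhibitor of complement C1 and kallikrein, at 104 CPM per kb.

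A difference between 2 libraries was called when it was at least 2-fold on log2(CPM + 0.5) and the 95% exact (Clopper-Pearson) counting interval of the ratio left out 1, among genes with a mean of at least 1 CPM in the tissue. "Rose" and "fell" below refer to such calls, and intervals in parentheses are those counting intervals on the log2 scale, computed without the added 0.5 CPM. They cover counting error only. A fold printed as such is the ratio of the CPM values themselves, so for low genes it is larger than the log2 value on the added 0.5 CPM. In liver 28 members were tested, in WAT 26 and in gastrocnemius 20. The members not tested in a tissue are given as counts or ranges.

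With CORT, the livers of both genotypes showed lower transcripts of the hormone carriers Serpina6 and Serpina7 and of 1 alpha-1-antitrypsin gene, Serpina1e, and a higher transcript of the thrombin and urokinase inhibitor Serpine2. In GRfl/fl livers 4 members rose and 5 fell, 9 of 28, where 13.8% of all 10943 genes tested were called. In GR-mKO livers 1 member rose and 5 fell, 6 of 28, against a background of 7.72%. Serpina1e, Serpina6, Serpina7, Serpina9 and Serpine2 were called in the same direction in both genotypes, 5 of 28 members, and 3.83% of all genes were so called. Of these, Serpina9 passed the filter on the mean only through the vehicle libraries, so its calls are partly set by the filter. The median log2 change over the 28 members was -0.03 in GRfl/fl and 0.02 in GR-mKO livers, beside 0.01 and 0.06 over all genes tested.

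Serpina6, on chromosome 12 from 103646630 to 103657212, measured 284 CPM in the vehicle-treated and 59.9 CPM in the CORT-treated GRfl/fl liver, and 403 CPM and 85.4 CPM in the GR-mKO livers. Both CORT libraries lay below both vehicle libraries. GRfl/fl livers thus showed a 4.74-fold fall, log2 -2.24 (-2.33 to -2.16), and GR-mKO livers a 4.72-fold fall, log2 -2.23 (-2.31 to -2.16). Between genotypes Serpina6 was higher in GR-mKO livers by log2 0.50 under vehicle and 0.51 under CORT, which did not reach the 2-fold mark. Outside liver the transcript was at the floor, with 0, 0, 4 and 4 counts in gastrocnemius and 0, 2, 3 and 0 counts in WAT, in the order vehicle GRfl/fl, CORT GRfl/fl, vehicle GR-mKO and CORT GR-mKO. Serpina7 measured 17.9 CPM and 4.64 CPM in the vehicle and CORT livers of GRfl/fl mice and 19.7 CPM and 5.29 CPM in those of GR-mKO mice, which gave log2 changes of -1.84 (-2.29 to -1.62) and -1.81 (-2.21 to -1.59). The pattern of the hormone carriers was thus a lower level in each CORT library, with sizes in the genotypes that differed by less than their counting intervals. Among other genes of the list of hormone carriers and corticosteroid response, Alb, the most abundant plasma carrier, stood at log2 0.74 and 0.65 with CORT, and Ttr, the other thyroxine carrier, at -0.05 and 0.22. Of the 12 genes of that list tested in liver, 1 rose and 3 fell in GRfl/fl and 3 rose and 1 fell in GR-mKO mice, and Fkbp5, a classic glucocorticoid receptor target, rose in both.

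**Figure D1:**
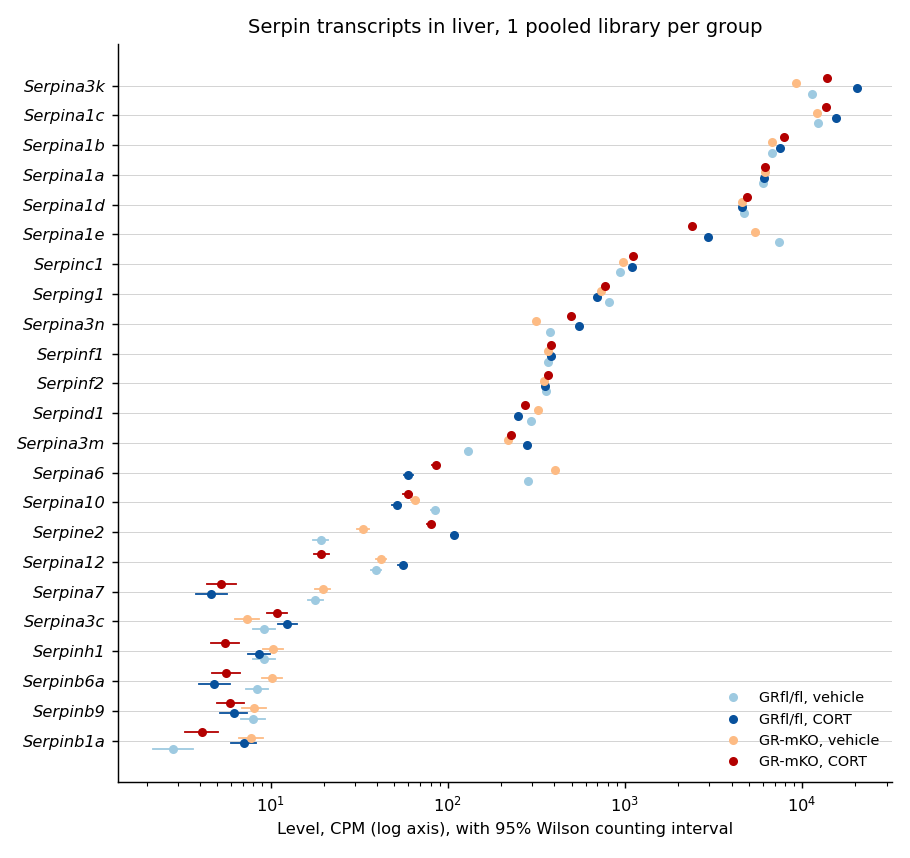
Levels of the named serpin transcripts in the 4 liver libraries, on a log axis in CPM, with 95% Wilson counting intervals as horizontal bars, each point being 1 pooled library. The CORT points (dark) of Serpina6, Serpina7 and Serpina1e lie to the left of the vehicle points (pale) in both genotypes, those of Serpine2 to the right, and the points of Serpina1a, Serpinf1 and Serpinf2 nearly coincide.

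Alpha-1-antitrypsin, the plasma inhibitor of neutrophil elastase, is a single gene in people and a cluster of near copies in mice. The 5 copies had coding sequences of equal length that were 96.3% to 98.5% identical over the 10 pairs. They differed in the reactive centre loop, the bait that sets which protease is trapped. The coding stretch of 87 bases from the hinge before the loop to the conserved Pro-Phe after it is printed for each copy, because it shows where reads and proteins of the copies can be told apart. It was taken from GENCODE M21 (GRCm38, chromosome 12, minus strand, exon 5), where it lies at 103853750 to 103853836 for Serpina1a, 103728317 to 103728403 for Serpina1b, 103895087 to 103895173 for Serpina1c, 103763755 to 103763841 for Serpina1d and 103947093 to 103947179 for Serpina1e. Capitals mark the 18 positions at which the copies differ.
Serpina1a: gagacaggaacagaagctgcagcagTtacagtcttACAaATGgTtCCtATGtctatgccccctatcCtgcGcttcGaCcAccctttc
Serpina1b: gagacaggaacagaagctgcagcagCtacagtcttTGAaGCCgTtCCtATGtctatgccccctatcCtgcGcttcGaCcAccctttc
Serpina1c: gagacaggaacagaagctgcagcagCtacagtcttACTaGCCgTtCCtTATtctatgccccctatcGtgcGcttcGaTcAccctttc
Serpina1d: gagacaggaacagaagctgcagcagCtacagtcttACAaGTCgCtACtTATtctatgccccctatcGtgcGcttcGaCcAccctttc
Serpina1e: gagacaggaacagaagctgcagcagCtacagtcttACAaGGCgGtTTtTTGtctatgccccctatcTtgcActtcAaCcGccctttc

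Because reads from shared stretches can be assigned to either copy, the split among the copies is uncertain. Of all stretches of 100 bases, the length of a read, in the coding sequence, the share found unchanged in another member was 61.3% for Serpina1a, 61.8% for Serpina1c, 29.9% for Serpina1d, 28.0% for Serpina1b and 19.1% for Serpina1e, so Serpina1e was the copy with the most sequence of its own.

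Serpina1e was the 1 copy of the 5 that fell with CORT in liver. It measured 7398 CPM in the vehicle and 2958 CPM in the CORT library of GRfl/fl mice, and 5449 CPM and 2383 CPM in those of GR-mKO mice. The log2 changes were -1.32 (-1.34 to -1.31) and -1.19 (-1.21 to -1.18), and both CORT libraries lay below both vehicle libraries. Serpina1a stood at 5985, 6099, 6213 and 6169 CPM in the order vehicle GRfl/fl, CORT GRfl/fl, vehicle GR-mKO and CORT GR-mKO, which is the order used for all lists of 4 values below. Serpina1b stood at 6768, 7556, 6773 and 7905 CPM, and Serpina1d at 4721, 4613, 4565 and 4917 CPM. Serpina1c, the most abundant copy, measured 12319, 15638, 12079 and 13584 CPM, with log2 changes of 0.34 and 0.17 for CORT. The sum over the 5 copies was 37192, 36865, 35080 and 34959 CPM, a log2 change of -0.01 with CORT without Cre and of 0.00 with it, so the total of the cluster held while its makeup moved. Serpina1e made up 19.9% of the sum in the vehicle and 8.02% in the CORT library of GRfl/fl mice, and 15.5% and 6.82% in those of GR-mKO mice. The sum does not depend on how shared reads were split among these 5 entries. Whether it includes reads given to other transcripts of the copies was not settled.

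**Figure D2:**
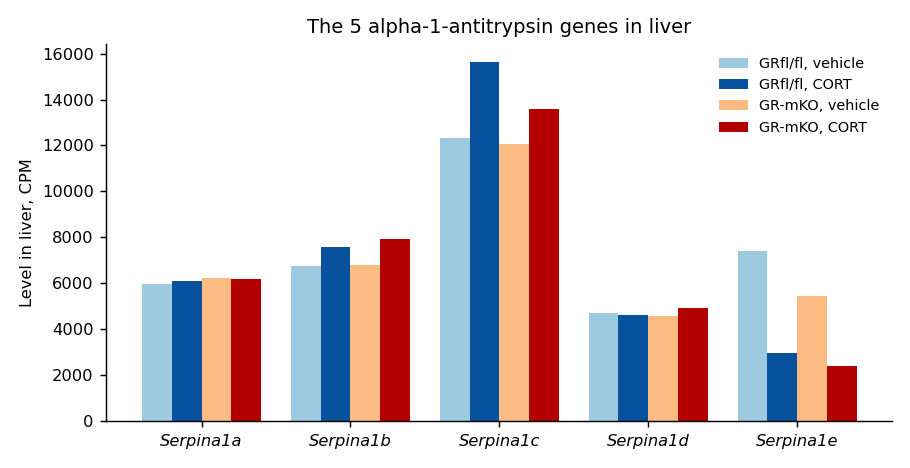
Levels of the 5 alpha-1-antitrypsin copies in liver in CPM (bars from 0), with 1 bar per pooled library and no error bar because no group had a replicate. Serpina1e stands at 7398 and 5449 CPM under vehicle and at 2958 and 2383 CPM under CORT, while the bars of Serpina1a and Serpina1d are nearly level.

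The promoters of the copies were compared with each other only over a stretch picked between short anchors that all 5 copies hold. Their identity outside it was not computed. This stretch of 88 bases just upstream of the RefSeq start sites (RefSeq promoters, GRCm38.p6, chromosome 12, minus strand) is shown because the copy that fell and the 4 that did not share almost all of it. Capitals mark the 10 positions that differ. It lies at chr12:103863625-103863712 for Serpina1a, chr12:103738200-103738287 for Serpina1b, chr12:103904962-103905049 for Serpina1c, chr12:103773634-103773721 for Serpina1d and chr12:103956960-103957047 for Serpina1e.
Serpina1a: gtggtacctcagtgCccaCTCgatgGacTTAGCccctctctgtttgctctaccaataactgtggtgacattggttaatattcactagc
Serpina1b: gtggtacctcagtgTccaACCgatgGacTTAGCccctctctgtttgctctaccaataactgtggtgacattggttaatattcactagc
Serpina1c: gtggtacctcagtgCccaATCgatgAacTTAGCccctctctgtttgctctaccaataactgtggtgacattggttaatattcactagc
Serpina1d: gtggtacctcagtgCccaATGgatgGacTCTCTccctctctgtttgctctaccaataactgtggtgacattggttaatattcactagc
Serpina1e: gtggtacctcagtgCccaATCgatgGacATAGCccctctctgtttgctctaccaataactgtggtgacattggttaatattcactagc
The stretch ended 5, 10, 11, 0 and 62 bases before the RefSeq start of Serpina1a, b, c, d and e, respectively. Its end holds GTTAAT, part of the binding motif of the liver factor HNF1, in all 5 copies. Searched on both strands, GTTAAT occurred in 7.10% of all 32851 promoters of the same length in the table and in those of 8 of the 29 members that matched the table. TGTTCT, the core of the glucocorticoid receptor motif, occurred in 19% of all promoters and in those of 15 of the 29 members, among them all 5 alpha-1-antitrypsin copies, Serpina3c and Serpina3n. TTCNNNGAA, the motif of STAT factors, occurred in 8.30% of all promoters and in 6 of the 29 members. Promoters of the near copies are not independent of each other, and a match is a description of the letters only.

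The Serpina3 group, the mouse counterparts of alpha-1-antichymotrypsin, which inhibits chymotrypsin-like proteases, summed higher with CORT in liver. The sum over its 9 members was 11840, 21287, 9771 and 14623 CPM, log2 0.85 and 0.58 with CORT. Most of it was Serpina3k, at 11315, 20441, 9222 and 13885 CPM, whose log2 changes of 0.85 and 0.59 stayed under 2-fold. Serpina3n, an acute-phase inhibitor, measured 379, 549, 316 and 496 CPM, and each CORT library lay above each vehicle library. Its log2 changes were 0.53 (0.49 to 0.58) and 0.65 (0.60 to 0.69). Serpina3m measured 129, 282, 220 and 228 CPM, so that it rose in GRfl/fl livers by log2 1.12 (1.06 to 1.19) while the GR-mKO libraries differed by 0.05. Serpina3g, which is expressed in activated lymphocytes and myeloid cells, measured 4.72, 1.16, 4.18 and 2.76 CPM and fell in GRfl/fl livers, by log2 -1.65. Of 5 neutrophil and macrophage markers tested in liver, Adgre1, Cd68, Csf1r and Lyz2 fell in GRfl/fl mice and Csf1r in GR-mKO mice, and none rose. Their part in the Serpina3g values was not tested. The coding sequences of Serpina3k and Serpina3m were 91.0% identical, 8.2% of the 100-base stretches of each occurred in another member, and the annotated gene span of Serpina3m includes that of Serpina3k, so part of the reads of either could be counted for the other.

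Serpine2, called protease nexin-1 and an inhibitor of thrombin, urokinase and plasmin, showed the widest CORT rise among the liver members above 5 CPM. It measured 19.2, 109, 33.3 and 80.1 CPM, and both CORT libraries lay above both vehicle libraries. GRfl/fl livers thus showed a 5.70-fold rise, log2 2.48 (2.36 to 2.67), and GR-mKO livers a 2.40-fold rise, log2 1.25 (1.14 to 1.40). Of 7 fibroblast and endothelial markers tested in liver, Pdgfra and Pecam1 rose with CORT in GRfl/fl and Pdgfra in GR-mKO mice. None fell, and the list medians were 0.18 and -0.03. The part of these markers in the Serpine2 values was not tested. Serpina5, the protein C inhibitor, also rose in GRfl/fl livers, from 0.526 to 7.03 CPM or 11 to 144 counts, and stood at 0.484 and 1.01 CPM in GR-mKO livers. Under CORT the GR-mKO liver stood below the GRfl/fl liver, by log2 -2.32 (-3.53 to -2.13). Serpina9, known from germinal centre B cells, was called lower, with 52 against 3 counts in GRfl/fl and 29 against 3 counts in GR-mKO livers, for counting intervals of -6.41 to -2.46 and -5.64 to -1.59. Ighm, the 1 gene of 6 on the B cell marker list that was tested in liver, also fell in both genotypes, by log2 -1.85 and -1.57, and the part of B cells in the Serpina9 values was not tested.

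The other plasma serpins of liver did not pass 2-fold in any comparison. Serpinc1, antithrombin, measured 941, 1098, 975 and 1108 CPM, and Serping1 813, 695, 736 and 768 CPM. The deposited Serpinc1 entry of liver is named for a transcript of 1044 bases, those of gastrocnemius and WAT for a transcript of 4970 bases. Serpinf1, pigment epithelium-derived factor, stood at 367, 383, 367 and 384 CPM, and Serpinf2, alpha-2-antiplasmin, at 359, 353, 349 and 368 CPM. These levels spread little over the 4 groups. Serpind1, heparin cofactor II, gave 295, 249, 325 and 272 CPM, lower by log2 -0.25 and -0.26 with CORT. Serpina10, the inhibitor of factor Xa that works with protein Z, measured 84.3, 51.5, 65.4 and 59.5 CPM, log2 -0.71 with CORT in GRfl/fl livers and -0.14 in GR-mKO livers. Serpina11 kept between 42.7 and 45.2 CPM. In the list of proteases that serpins act on in plasma, 1 of the 21 genes tested, F11 (factor XI), fell in liver in both genotypes, by log2 -1.18 and -1.16, and none rose. Of the 19 other plasma protease inhibitors tested, 1 rose and 3 fell in GRfl/fl livers and 1 rose in GR-mKO livers, and of 19 acute-phase proteins 2 rose and 4 fell in GRfl/fl and 3 rose and 2 fell in GR-mKO livers, with Saa1 and Saa3 among those that fell in both. Of 4 leukocyte and intracellular proteases tested in liver, Casp1 and Ctss fell in GRfl/fl mice and none in GR-mKO mice.

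Between genotypes the liver members differed little. Under vehicle 1 of 28 members was called, Serpinb1a, against 4.21% of all genes, and NOISeq called none of 31, against 0.561%. Under CORT 2 of 28 were called, Serpina5 and Serpina12, against 6.65%. The shares called at 2-fold are near the background. NOISeq called 2 of 31 under CORT, both lower in GR-mKO livers, against 1.33%. Serpina12, called vaspin and known as an adipokine with insulin-sensitising action, measured 39.4, 55.7, 42.1 and 19.4 CPM, so that the CORT libraries were the highest and the lowest of the 4. The log2 change with CORT was 0.50 (0.37 to 0.63) in GRfl/fl livers and -1.10 (-1.29 to -0.95) in GR-mKO livers, and GR-mKO was lower than GRfl/fl under CORT by -1.5 (-1.69 to -1.36). Serpinb1a, an inhibitor of neutrophil proteases that hepatocytes also make, measured 2.82, 7.07, 7.74 and 4.09 CPM, or 1.19 and -0.84 with CORT. Neutrophil and macrophage markers summed to 128, 42.7, 101 and 64.8 CPM in the same libraries, with Ngp and Camp at 0 in each of them, so these markers were lower in both CORT libraries, whereas Serpinb1a was not. The gap between the genotypes was not tested, each group being 1 library.

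The remaining liver members were low. Serpina3c measured 7.40 to 12.4 CPM, Serpinh1 5.55 to 10.3 CPM, Serpinb6a 4.82 to 10.2 CPM and Serpinb9, the granzyme B inhibitor, 5.91 to 8.07 CPM, all uncalled. Serpinb6b was tested at 0.935 to 2.36 CPM and not called. Another 9 members had a mean under 1 CPM in liver, and 3 of those had no more than 1 count in any library. Among these, Serpina3f had 51, 7, 0 and 0 counts and was not tested.

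**Figure D3:**
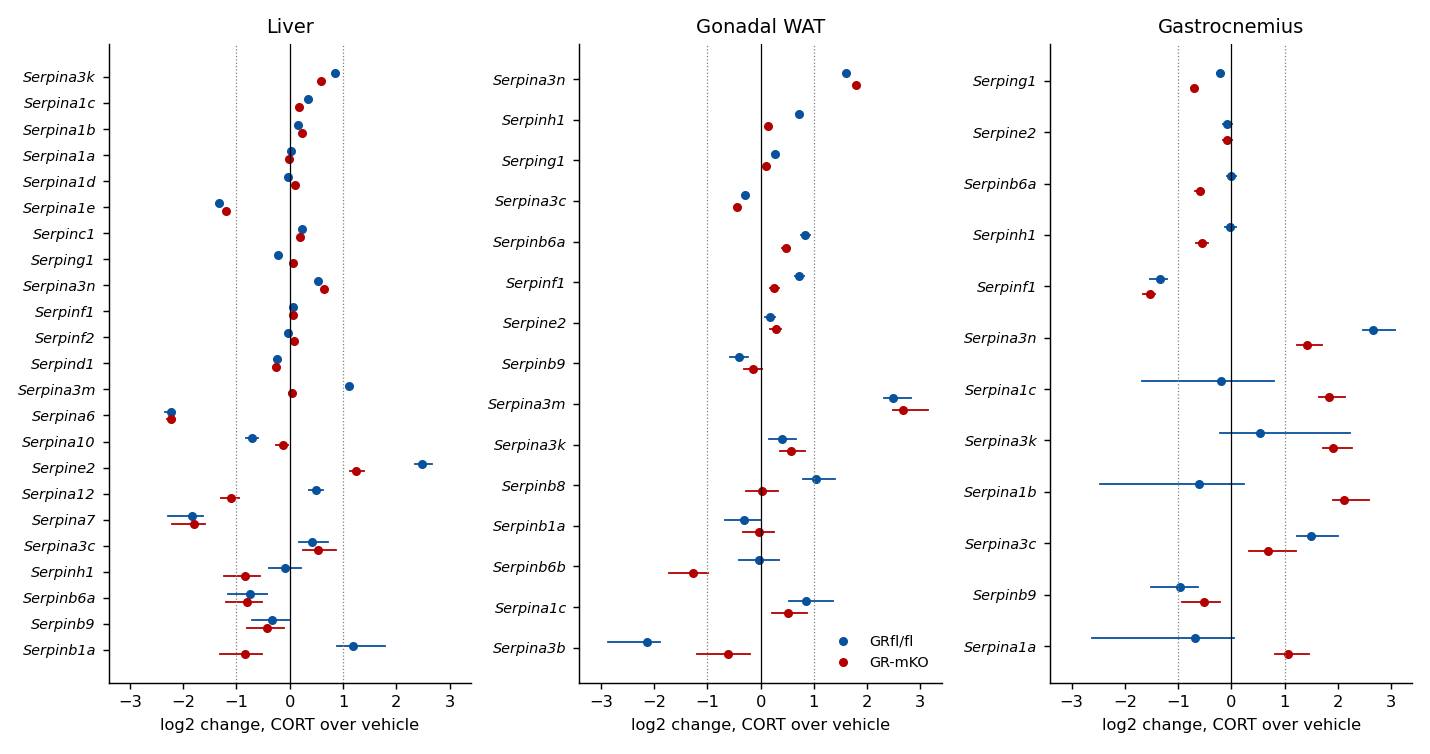
Log2 changes with CORT over vehicle on log2(CPM + 0.5) in liver, gonadal WAT and gastrocnemius, ordered from the highest to the lowest mean level, in GRfl/fl (blue) and GR-mKO (red) mice. Bars are 95% exact counting intervals of the ratio without the added 0.5 CPM, and dotted lines mark 2-fold. Serpina6 sits at -2.24 and -2.23 in liver, Serpina3n at 1.60 and 1.79 in WAT, and Serpinf1 at -1.34 and -1.53 in gastrocnemius.

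In gonadal WAT the antichymotrypsin-like members Serpina3n and Serpina3m rose with CORT in both genotypes, while the low members Serpina3g, Serpina3i and Serpina3j of the same group fell. In GRfl/fl WAT 5 members rose and 5 fell, 10 of 26, where 15.4% of 12817 genes were called, and in GR-mKO WAT 4 rose and 4 fell, 8 of 26, where 10.7% were called. Of the 26 members, 7 were called in the same direction in both genotypes, beside 6.05% of all genes. Serpina3m, Serpina3n, Serpinb2 and Serpinb9b rose in both, and Serpina3g, Serpina3i and Serpina3j fell in both, although with an added 1 CPM the Serpina3i change in GRfl/fl WAT was -0.90 and uncalled. Serpinb2 and Serpinb9b passed the filter on the mean only through the CORT libraries. Serpina3g, Serpina3i and Serpina3j passed it only through the vehicle libraries. Their part of the count is thus partly set by the filter. NOISeq, a test for single libraries used by the authors, called 4 members in GRfl/fl and 2 in GR-mKO WAT, against 7.31% and 4.35% of all genes. The median log2 change over the members was 0.38 and 0.12, beside -0.06 and -0.13 over all genes tested.

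Serpina3n was the most abundant serpin of WAT and measured 656 and 1989 CPM in the vehicle and CORT libraries of GRfl/fl mice and 527.9 and 1825 CPM in those of GR-mKO mice. Both CORT libraries lay above both vehicle libraries. The rise was 3.03-fold, log2 1.60 (1.57 to 1.63), in GRfl/fl and 3.46-fold, log2 1.79 (1.76 to 1.82), in GR-mKO mice. Serpina3m measured 7.92, 47.0, 4.67 and 32.5 CPM, 5.93-fold and 6.97-fold higher with CORT. Serpina3c went the other way without being called, at 336, 275, 350 and 256 CPM or log2 -0.29 and -0.45. Serpina3k stood at 11.8, 15.8, 12.3 and 18.6 CPM and was not called.

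The loop of Serpina3n and of Serpina3m is shown because these relatives, which were 85.2% identical in coding sequence, carry different baits. The coding stretch of 96 bases from the hinge to the Pro-Phe is printed from GENCODE M21 (GRCm38, chromosome 12, plus strand), at 104393763 to 104393858 for Serpina3m and 104413442 to 104413537 for Serpina3n, with capitals at the 28 positions that differ. Only 0.087% of the 100-base stretches of Serpina3n occurred in another member, so its reads could be told from those of Serpina3m.
Serpina3m: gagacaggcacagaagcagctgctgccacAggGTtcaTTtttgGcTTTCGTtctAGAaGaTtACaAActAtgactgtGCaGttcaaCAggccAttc
Serpina3n: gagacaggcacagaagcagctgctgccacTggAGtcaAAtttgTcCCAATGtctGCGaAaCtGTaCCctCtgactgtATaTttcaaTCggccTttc

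Several low members of the Serpina3 group fell in WAT with CORT. Serpina3g had 59, 14, 67 and 7 counts, Serpina3i 35, 9, 35 and 4 counts, and Serpina3j 39, 4, 36 and 5 counts, each lower in both CORT libraries. Serpina3b measured 11.4, 2.22, 4.71 and 2.92 CPM, so the vehicle library of GRfl/fl mice stood above the others. It fell in GRfl/fl WAT by log2 -2.13 (-2.86 to -1.89), and the vehicle library of GR-mKO mice stood below that of GRfl/fl mice by -1.19. B cell markers moved in the same libraries, with 4 of the 5 tested, Cd79a, Cd79b, Jchain and Ms4a1, lower with CORT in both genotypes and Ighm higher in GRfl/fl WAT. Their part in the Serpina3g, Serpina3i and Serpina3j values was not tested.

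**Figure D4:**
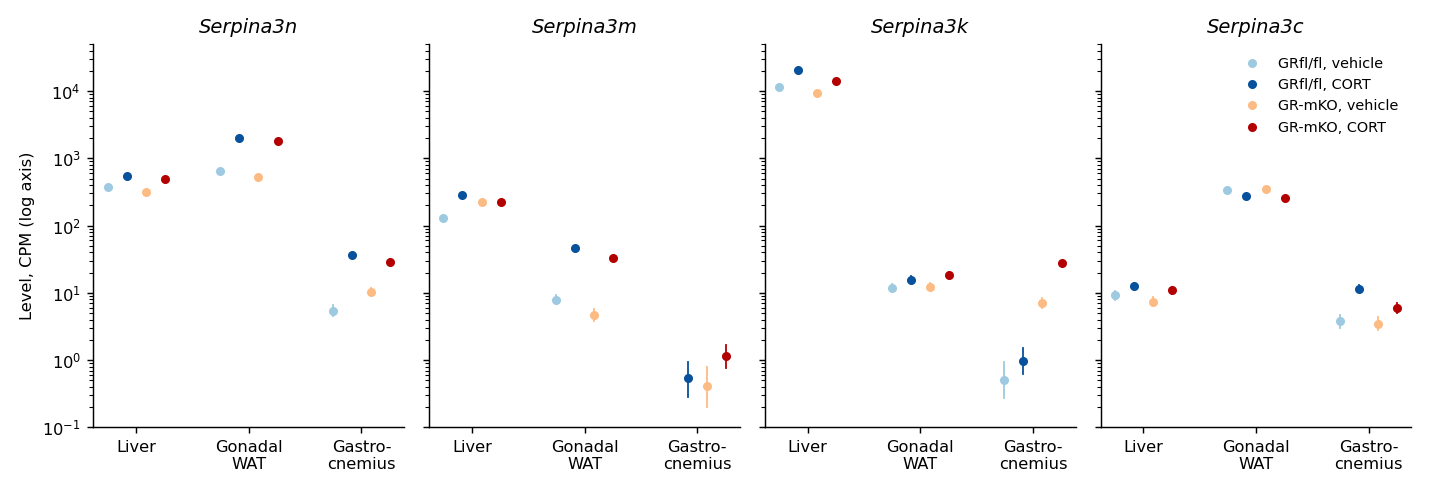
Levels of 4 genes of the Serpina3 group in liver, gonadal WAT and gastrocnemius, on a log axis in CPM with 95% Wilson counting intervals, 1 point per pooled library. Serpina3m had 0 counts in the vehicle-treated GRfl/fl gastrocnemius and no point there. Serpina3n stands higher in the CORT libraries (dark) of each tissue, whereas Serpina3k in gastrocnemius is split by genotype, at 0.503 and 0.957 CPM in GRfl/fl and 7.04 and 27.7 CPM in GR-mKO mice.

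Serpine2 kept within 69.7 to 86.0 CPM in WAT and was not called. Of the 7 fibroblast and endothelial markers, Cdh5, Pecam1 and Vwf fell with CORT in GRfl/fl WAT and none in GR-mKO WAT, and the 7 summed to 2022 to 2156 CPM. Of 14 plasma protease targets tested, F5, F7, Hgf and Masp1 rose with CORT in both genotypes, joined by Kng2 in GR-mKO mice, and none fell.

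Serpinh1 measured 312, 513, 350 and 386 CPM in WAT, log2 0.72 (0.67 to 0.76) with CORT in GRfl/fl WAT and 0.14 (0.09 to 0.19) in GR-mKO WAT, neither called. Of 18 genes of the list of its collagen partners, 7 rose in GRfl/fl WAT and 3 in GR-mKO WAT, Col4a1, Col4a2 and Col5a1 in both, and none fell. The median log2 change of that list was 0.69 and 0.30, beside -0.06 and -0.13 over all genes. Serping1 stood at 325 to 415 CPM and Serpinf1 at 95.1, 158, 103 and 124 CPM. Neither was called.

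The clade b members of WAT are mostly leukocyte inhibitors. Serpinb6a measured 98.9, 178, 133 and 185 CPM, log2 0.84 and 0.47, and Serpinb9 24.5 to 32.5 CPM, both uncalled. Serpinb9b, a near relative of Serpinb9, had 8, 111, 8 and 124 counts and rose 13.9-fold and 15.1-fold. Serpinb2, an inhibitor of urokinase that macrophages make, had 0, 26, 0 and 64 counts, at least 8.52-fold and 21-fold higher with CORT when the vehicle libraries are set to 3 counts each, although its gene overlaps Serpinb10, whose reads could be counted with it. Serpinb8, an inhibitor of furin, measured 6.6, 14.1, 9.15 and 9.29 CPM and rose in GRfl/fl WAT by log2 1.04, or 0.99 and uncalled with an added 1 CPM. Serpinb6b measured 6.11, 5.96, 11.3 and 4.44 CPM and fell in GR-mKO WAT by log2 -1.26. Serpinb1a stood at 6.54 to 9.82 CPM. Neutrophil and macrophage markers summed to 691, 1800, 920 and 1715 CPM, higher in both CORT libraries like Serpinb2 and Serpinb9b. Of the 8 tested, Adgre1, Cd68, Itgam, Lyz2 and Mrc1 rose in GRfl/fl WAT and Cd68 in GR-mKO WAT, Elane fell in both, and the neutrophil gene Ngp was at 0 in all 4 libraries. Their part in the serpin values was not tested. Of 9 leukocyte and intracellular proteases that serpins act on, Ctss rose and Elane, Prtn3 and Tpsb2 fell with CORT in GRfl/fl WAT, and Elane and Prtn3 fell in GR-mKO WAT, for list medians of -0.09 and 0.34.

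Genotype differences in WAT were few. Under vehicle 2 of 26 members were called, Serpina1d higher and Serpina3b lower in GR-mKO, against 3.5% of all genes. Under CORT 1 of 26 was called, Serpinb2 higher in GR-mKO, against 4.12%. The calls of Serpina1d and Serpinb2 were lost with an added 1 CPM in place of 0.5 CPM. The low copies of the alpha-1-antitrypsin cluster ranged over the 4 libraries from 3.81 to 9.42 CPM for Serpina1c, from 2.96 to 6.91 CPM for Serpina1a, from 1.65 to 5.69 CPM for Serpina1b, from 1.12 to 3.48 CPM for Serpina1d and from 0.550 to 1.46 CPM for Serpina1e. Serpinc1 measured 2.80 to 6.54 CPM and was not called. Hepatocyte markers other than Cyp2e1, which stood at 4877 to 5824 CPM in WAT or 64.4% to 138% of its liver level, summed to 57.4, 65.0, 66.3 and 119 CPM. Of the 8 markers tested there 3 rose with CORT in GR-mKO mice, 1 in GRfl/fl mice and none fell. Between genotypes, none was higher and 1, Ahsg, was lower in GR-mKO WAT under vehicle. Under CORT 3, Apoa1, Cps1 and Ttr, were higher in GR-mKO WAT and none was lower. Their part in the Serpina1 values of WAT was not tested. Mesothelium markers summed to 281 to 429 CPM, with 1 of 7 higher with CORT in GR-mKO mice. Of 9 acute-phase proteins tested, 5 rose with CORT in GRfl/fl and 4 in GR-mKO WAT, Hp, Lcn2, Orm1 and Orm2 in both, and of 13 other plasma protease inhibitors 3 rose and 2 fell, and 3 rose and 1 fell. The other 11 members had a mean under 1 CPM, and of these 2 had no more than 1 count in any library.

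Gastrocnemius showed 3 patterns: Serpina3n rose and Serpinf1 fell with CORT in both genotypes, and the serpins of hepatocytes stood higher in GR-mKO than in GRfl/fl muscle under both treatments. With CORT, 2 members rose and 2 fell in GRfl/fl mice, 4 of 20, where 10.1% of 12190 genes were called. The split was 2 higher and 1 lower with TMM or median-of-ratios scaling, under which the call of Serpinb6b was lost. NOISeq called 2 members in GRfl/fl and 5 in GR-mKO muscle, against 3.4% and 1.96% of all genes. In GR-mKO mice 6 rose and 3 fell, 9 of 20, where 8.22% were called. Serpina3n and Serpinf1 were the 2 of 20 called in the same direction in both, beside 2.39% of all genes.

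Serpina3n measured 5.44, 36.9, 10.4 and 28.9 CPM in gastrocnemius, with both CORT libraries above both vehicle libraries. The ratio of CPM was 6.78 in GRfl/fl muscle and 2.77 in GR-mKO muscle, and on log2(CPM + 0.5) the rises were 2.65 (2.47 to 3.06) and 1.43 (1.24 to 1.70). Serpina3c rose in GRfl/fl muscle, at 3.77, 11.5, 3.5 and 5.95 CPM, by log2 1.49 (1.23 to 2.01), beside 0.69 in GR-mKO muscle. Both genes are abundant in fat, and adipocyte markers moved in the same libraries. Of the 10 tested, 8 rose and 1, Cfd, fell with CORT in GRfl/fl muscle and 6 rose in GR-mKO muscle, Adipoq, Cidec, Lep, Pck1, Plin1 and Retn in both, although the summed level of the list was 3109, 2589, 5231 and 5010 CPM. Fkbp5, in contrast to Serpina3n, stood at 61.9, 355, 30.0 and 20.8 CPM, and its log2 change with CORT was 2.51 in GRfl/fl and -0.52 in GR-mKO muscle. Of 9 acute-phase proteins Hp, Lcn2, Lrg1 and Orm1 rose with CORT in GRfl/fl muscle and Fgb, Fgg, Hp, Lcn2 and Orm1 in GR-mKO muscle, and none fell. The part of adipocytes in the Serpina3n values was not tested.

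Serpinf1, an anti-angiogenic and neurotrophic factor that does not inhibit proteases, measured 59.5, 23.2, 120 and 41.2 CPM, so that each CORT library lay below each vehicle library. The log2 changes were -1.34 (-1.52 to -1.20) and -1.53 (-1.66 to -1.43). Under vehicle it was higher in GR-mKO than in GRfl/fl muscle by 1.01 (0.91 to 1.11), or 0.93 and uncalled with TMM scaling, and under CORT by 0.82, which missed 2-fold. Fibroblast and endothelial markers summed to 1607, 673, 2294 and 855 CPM, in the same order as Serpinf1. Of the 7, Col1a1 and Col1a2 fell with CORT in GRfl/fl and Col1a1, Col1a2 and Dcn in GR-mKO muscle. Between genotypes none of the 7 was called under vehicle or under CORT, for list medians of 0.28 and 0.005. The part of these markers in the Serpinf1 values was not tested. Serpinh1, the collagen chaperone, stood at 85.1, 84.0, 81.5 and 55.5 CPM and was not called, while 6 of 18 of its collagen partners fell with CORT in each genotype, Col1a1, Col1a2, Col3a1, Col5a1, Col6a1 and Fkbp10, and 1, P4ha1, rose in GR-mKO muscle. The deposited Serpinf1 entry is named for a short transcript of 976 bases that GENCODE M21 classes under nonsense-mediated decay, in all 3 tissues.

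Between genotypes, 11 of 20 members were called under vehicle, where 9.7% of all genes were called, and all 11 were higher in GR-mKO muscle, where 5.73% of all genes were called higher. Under CORT 10 of 20 were called against 11.5% of all genes, 9 of them higher, where 5.51% of all genes were called higher, and Serpinb8 lower. Both counts are partly set by the filter. Serpina1a to Serpina1e and Serpina3k were below 1 CPM in both GRfl/fl libraries and passed it only through the GR-mKO libraries. The members called higher in both treatments included Serpina1a to Serpina1e, Serpina3k, Serpinc1 and Serpinb1a. Under vehicle Serpinf1 and Serpini1, neuroserpin, joined them. With TMM or median-of-ratios scaling 8 calls were left under vehicle, and those of Serpinf1 and Serpini1 were among the lost. Without the 7 tested members whose mean level in liver was at least 100 times that in gastrocnemius, a setting chosen after seeing the data, 4 of 13 members were called under vehicle and 3 of 13 under CORT. Serpinc1, among these 7, has entries of different transcripts in the 2 tissues. NOISeq called 3 members under vehicle and 6 under CORT, all higher, against 3.13% and 3.72% of all genes. With an added 1 CPM 7 calls were left under vehicle and 8 under CORT, against 8.06% and 9.32% of all genes. Among the lost under vehicle were Serpinc1, Serpinf1 and Serpini1, at 0.95, 0.999 and 0.84. Under CORT the calls of Serpinb1a, at 0.97, and Serpinb8, at -0.84, were lost.

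The hepatocyte serpins in muscle were low in absolute terms. Serpina1c measured 0.733, 0.577, 9.28 and 34.2 CPM, higher in GR-mKO by log2 2.99 under vehicle and 5.01 under CORT. Serpina3k measured 0.503, 0.957, 7.04 and 27.7 CPM, Serpina1b 0.881, 0.403, 4.29 and 20.2 CPM, and Serpina1a 0.956, 0.408, 6.19 and 13.6 CPM. Serpina1d stood at 0.494, 0.520, 3.76 and 11.3 CPM, Serpina1e at 0.616, 0.155, 3.69 and 5.65 CPM, and Serpinc1 at 1.25, 1.22, 3.34 and 3.71 CPM. For each of these 7 genes both GR-mKO libraries lay above both GRfl/fl libraries. Genes made by hepatocytes other than serpins moved with them. Of 14 hepatocyte markers tested in gastrocnemius, 13 were higher in GR-mKO muscle under vehicle and the same 13, among them Alb, Ttr and Fgb, under CORT, and the 14th was Cyp2e1. Cyp2e1 stood at 39.0, 103, 49.8 and 91.1 CPM, and the other 13 summed to 7.43, 10.1, 88.0 and 280 CPM. Alb stood at 4.13, 7.47, 56.4 and 198 CPM, and Apoa2 was at 0 in both GRfl/fl libraries.

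Expressed as a percentage of the liver level of the same group, 6 serpins (Serpina1a to Serpina1e and Serpina3k) lay between 0.00445% and 0.0160% in the vehicle-treated GRfl/fl muscle, between 0.00369% and 0.0113% in the CORT-treated one, between 0.0634% and 0.0997% in the vehicle-treated GR-mKO muscle and between 0.20% and 0.256% in the CORT-treated one. For the 11 hepatocyte markers other than Cyp2e1 that were above 0 in all 4 libraries the corresponding ranges were 0.00199% to 0.0233%, 0.00202% to 0.0309%, 0.0550% to 0.0958% and 0.153% to 0.241%. The ranges of these serpins and markers overlapped in each of the 4 libraries. The remaining markers, Apoa2 and Apoc3, were at 0 in some GRfl/fl library and reached 0.147% and 0.0769% in vehicle-treated and 0.330% and 0.305% in CORT-treated GR-mKO muscle. Serpinc1 was left out because its retained transcript differed between liver and muscle. Serpind1 was higher, at 0.205%, 0.0414%, 0.154% and 0.470%, and rested on 2 to 26 counts. The part of hepatocyte RNA in the serpin values of these muscle libraries was not tested.

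**Figure D5:**
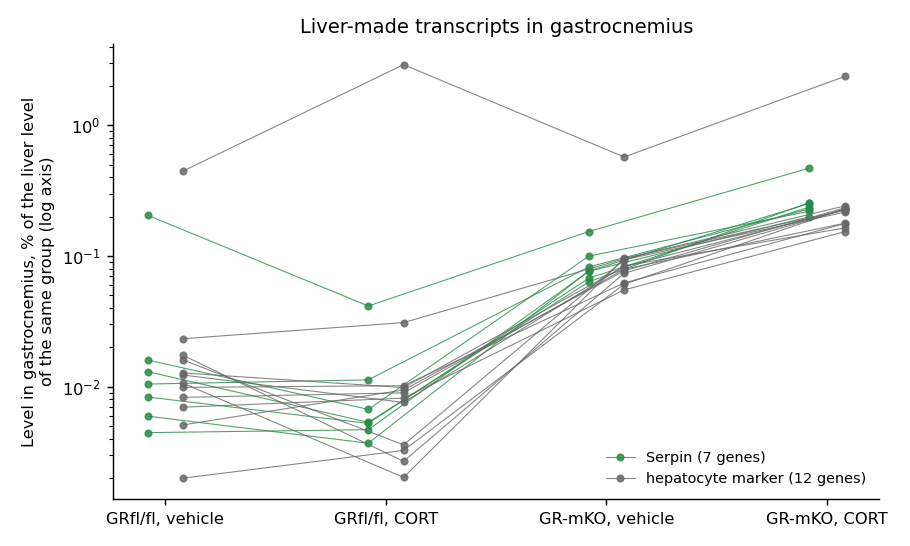
Level of 7 serpins (green) and 12 hepatocyte markers (grey) in gastrocnemius as a percentage of the liver level of the same group, on a log axis, each line being 1 gene and each point 1 pooled library, for genes whose retained transcript was the same in both tissues and that were above 0 in all 4 libraries. The median of the serpins lies at 0.0105% in vehicle-treated GRfl/fl and 0.237% in CORT-treated GR-mKO muscle, that of the markers at 0.0114% and 0.225%, and Cyp2e1 (top) and Serpind1 run apart.

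Serpinb1a, whose mean level in liver was less than 100 times that in muscle, also differed by genotype. It measured 2.46, 1.29, 7.72 and 3.49 CPM, higher in GR-mKO by log2 1.48 under vehicle and 1.16 under CORT, the latter 0.97 and uncalled with an added 1 CPM, and fell with CORT in GR-mKO muscle by -1.04, or by -0.90 and uncalled with TMM scaling. Neutrophil and macrophage markers summed to 106, 114, 390 and 145 CPM, highest in the same library as Serpinb1a, with Ngp at 0 in all 4 libraries. Of the 6 tested, 5 were higher in GR-mKO muscle under vehicle and all 6 fell with CORT in GR-mKO mice. Under CORT, where Serpinb1a was higher in GR-mKO muscle, none of the 6 was higher and 1, Itgam, was lower, for a list median of -0.42. Their part in the Serpinb1a values was not tested.

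Serping1, Serpine2, Serpinb6a and Serpinh1, the 4 members with the highest mean levels in muscle, were not called in any comparison. Serping1 measured 160, 139, 270 and 166 CPM, log2 0.75 between genotypes under vehicle and -0.70 with CORT in GR-mKO muscle, Serpine2 116 to 134 CPM, and Serpinb6a 111, 111, 123 and 81.5 CPM. Serpinb9 measured 6.89, 3.29, 8.26 and 5.61 CPM, log2 -0.96 with CORT in GRfl/fl muscle, just under 2-fold. Of the low members, Serpinb8 stood at 1.96, 2.03, 2.65 and 0.699 CPM and fell with CORT in GR-mKO muscle, by -1.39, and Serpinb6b had 18, 4, 44 and 18 counts and fell in GRfl/fl muscle, by -1.02. Serpini1 measured 1.02 to 2.60 CPM. Of 9 plasma protease targets tested, Plau and Plaur, urokinase and its receptor, were higher in GR-mKO muscle under vehicle and Kng1 under CORT. Of 7 leukocyte and intracellular protease targets tested, 3, namely Ctsk, Ctss and Tpsb2, were higher in GR-mKO muscle under vehicle and fell with CORT in GR-mKO mice. Of 11 other plasma protease inhibitors 5 were higher in GR-mKO muscle under vehicle, and 4 higher and 1 lower under CORT, and Ahsg, Ambp, Mug1 and Pzp, all made by hepatocytes, were higher in both. Of 9 acute-phase proteins 4 were higher in GR-mKO muscle under both treatments, the fibrinogen genes Fga, Fgb and Fgg and the haem carrier Hpx, and Lcn2 and Lrg1 were lower under CORT. The other 17 members had a mean under 1 CPM in gastrocnemius, and 8 of them had no more than 1 count in any library.

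Across tissues, Serpina3n was the 1 member called higher with CORT in both genotypes in more than 1 tissue, with log2 changes of 1.60 and 1.79 in WAT and 2.65 and 1.43 in gastrocnemius, beside 0.53 and 0.65 in liver, and the order of its mean level was WAT, liver, gastrocnemius. Serpinf1 had -1.34 in GRfl/fl gastrocnemius, 0.06 in liver and 0.73 in WAT. Serpina1e had -1.32 in GRfl/fl liver and stood at 0.55 to 1.46 CPM in WAT. Whether these tissue differences exceed the spread between mice could not be tested.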

How the data were processed

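The authors sequenced pooled RNA as 100-base read pairs and estimated transcript abundance by Salmon 1.2.1 against GENCODE M20 protein-coding transcripts (GRCm38) and imported them with tximport on the length-scaled scale. The deposited values are expected counts without scaling between libraries, with the largest entry kept per symbol and 1 transcript identifier per entry. Whether entries were summed over the gene was not settled, and 29 of 37 members had the same transcript in all tissues. Here CPM was computed from library totals. CPM has Wilson intervals, and exact intervals for ratios used rounded expected counts. A difference was called at 2-fold on log2(CPM + 0.5) with the interval leaving out 1, for means of at least 1 CPM. Named members were Serpina6, members called with a mean of at least 5 CPM, the 5 most abundant per tissue and a fixed list, and counts of other members are added. The members and lists were chosen with earlier results of these data known. Alternatives were TMM and median-of-ratios scaling, added values of 1 and 0.1 CPM, no filter, a mean of at least 10 CPM, 1.5-fold, and NOISeq. NOISeq, the authors' method, was rewritten here from its description. This version and the call were tested before use on simulated data that held counting error only. Scripts ran in Python 3.11.15 (numpy 2.4.6, pandas 2.3.3, scipy 1.17.1, biopython 1.88). TMM factors came from edgeR 4.0.16. Positions and coding sequences came from GENCODE M21 and promoters from RefSeq, both GRCm38. The values of 1 member are not reported here, although the counts of members include it.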

Additional observations from a re-analysis of the deposited data

Results flagged for a closer look

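Both genes listed here had CORT changes of opposite sign in the livers of the 2 genotypes, with both counting intervals leaving out a ratio of 1. Only the fall of Serpina12 in GR-mKO livers and the rise of Serpinb1a in GRfl/fl livers reached 2-fold. Serpina12 stood at a log2 change of 0.50 in GRfl/fl livers and -1.10 in GR-mKO livers. Serpinb1a stood at 1.19 in GRfl/fl livers and -0.84 in GR-mKO livers. Each value compares 1 pooled library with another, and the difference between the genotypes was not tested.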

How the results depend on the processing

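Counts of members called were recomputed under 100 combinations of comparison and alternative, and 65 stayed within 1.5 times. Scaling by TMM or median-of-ratios moved none beyond that. Of 42 called changes of the named members none turned its sign under another scaling or added value. With CORT in GR-mKO WAT the median over all genes was -0.13 with totals and -0.01 with TMM, and values there are relative to that shift.

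With a mean of at least 10 CPM, which tests fewer genes, 8 members were tested in gastrocnemius, 19 in liver and 11 in WAT. The members called in gastrocnemius were 2 (CORT in GRfl/fl), 3 (CORT in GR-mKO), 3 (genotype under vehicle) and 2 (genotype under CORT). The shares of all genes called there were 6.25%, 3.31%, 5.56% and 6.95%. In liver they were 5 with CORT in GRfl/fl, 0 between genotypes under vehicle and 1 under CORT, and in WAT 3, 2, 0 and 0 in the first order. At 1.5-fold, 7 were called with CORT in GRfl/fl gastrocnemius, 11 with CORT in GR-mKO liver, 5 and 6 between genotypes in liver under vehicle and CORT, 16 with CORT in GRfl/fl WAT, and 7 and 5 between genotypes in WAT. NOISeq called 2, 5, 3 and 6 in gastrocnemius in the first order, 0 between genotypes in liver under vehicle, and 4, 2, 0 and 0 in WAT, and the cause was not tested. An added 1 CPM left 7 of 20 between genotypes in gastrocnemius under vehicle (8.06% of all genes). In WAT it left 1 and 0 of 26 between genotypes under vehicle and CORT (2.89% and 3.21%). An added 0.1 CPM gave 4 of 28 between genotypes in liver under CORT (8.52%), and no filter gave 2 of 37 there under vehicle (2.95%). Without the members at least 100 times higher in liver, chosen after seeing the data, 4 of 13 were called in gastrocnemius with CORT in GR-mKO mice (8.18%). Between genotypes 4 and 3 of 13 were called there under vehicle and CORT (9.65% and 11.5%).

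No paired analysis was possible because each group was 1 library and the labels carry no replicate numbers. For the same reason no library was left out. Counting error was the only error known, and the spread between mice or pools was not measured. Members under 1 CPM rested on fewer than 21 counts a library on average.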
